A study of Rattus norvegicus with 56 samples.

Results

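The cortical thick ascending limb (cTAL) of the rat kidney was followed from 30 min to 3 h after its ureter had been tied. The quantity described is how far the UUO minus sham change at 3 h differed from the change at 30 min, gene by gene. It takes in all 16 cTAL libraries of a series of 56 samples, chosen by their labelled segment, and 11375 of the 32883 genes listed. A gene was kept if it reached 1 TPM (the deposited unit, a share of a library's transcripts corrected for gene length) in at least 4 of the 8 cTAL libraries of either time. Genes with exactly 4 such libraries at their better time numbered 401, with a median of 1.45 TPM in their highest group, and the 481 genes with exactly 3 such libraries had a median of 1.18 TPM and were left out.

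The animals were male Sprague-Dawley rats of 120 to 160 g. In the obstructed groups (unilateral ureteral obstruction, UUO) a silk tie closed the left ureter close to the renal pelvis, and sham animals went through the same operation with no tie. The 4 groups were sham and UUO at 30 min and sham and UUO at 3 h, each with 4 numbered replicates and 1 library per replicate. The labels give no more detail on which replicates are separate animals, so p-values measure the spread between these libraries.

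The thick ascending limb reabsorbs salt without water. The cotransporter Slc12a1 (NKCC2) carries sodium, potassium and chloride in from the urine, the channel Kcnj1 (ROMK) returns potassium to it, and the resulting voltage drives calcium and magnesium between the cells through claudin pores. Its cells also secrete uromodulin (Umod), and in obstruction they face raised pressure and stagnant urine. Immediate early genes such as Fos are transcribed within minutes of a stimulus without new protein, whereas later genes often need the proteins that the first ones encode.

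The libraries carried the labelled segment's markers. Umod lay between 28439 and 66397 TPM and Slc12a1 between 262 and 3982 TPM in the 16 libraries. TPM keep no depth, so no counting interval is given, but 10472 to 11160 genes per library reached 1 TPM at 30 min and 9585 to 10056 at 3 h. Sham replicate 1 at 3 h stood apart with 361 TPM of the collecting duct water channel Aqp2, against 0.340 to 4.34 TPM in the other 3 h sham libraries. Both tables were deposited separately, so levels are never compared between times. Only UUO against sham within a time is used, and the 2 changes are then subtracted. All log2 changes are on the log2(TPM + 1) scale, which understates changes of genes near 1 TPM. In bulk tubules, fewer cells of a type and less of a transcript per cell cannot be told apart.

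At 30 min the thick limb transcriptome showed little that passed a test, and at 3 h it differed widely between arms. Limma with Benjamini-Hochberg adjustment called 1 of 11375 genes at 30 min (0.00879%), with 174 (1.53%) at an unadjusted p under 0.05. That gene, the locus AABR07007730.1, was at 0 in all 4 sham libraries and at 18.6, 25.1, 21.1 and 19.8 TPM in UUO; it was named after its values were seen. At 3 h, 1914 genes were called (16.8%), 514 higher in UUO (4.52%) and 1400 lower (12.3%), and 3521 had an unadjusted p under 0.05 (31%). The difference between the 3 h and the 30 min change was called for 271 genes (2.38%), 109 of them higher (0.958%) and 162 lower (1.42%). The arms had no overlap in 200 genes at 30 min (1.76%) and in 2068 at 3 h (18.2%).

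The 271 genes were nearly all genes whose arms differed at 3 h and lay close together at 30 min. Among the 109 higher genes, 106 were also called at 3 h, 107 had no overlap between arms at 3 h, and 95 had a 30 min change smaller than 0.5 on the log2 scale in either direction. Their median change was -0.12 at 30 min and 1.68 at 3 h. All 162 lower genes were called at 3 h with no overlap, and 159 had a 30 min change smaller than 0.5. Their median change was 0.01 at 30 min and -1.37 at 3 h. No gene of either set was called at 30 min. The median gene of all 11375 changed by -0.06 at 30 min and -0.11 at 3 h, so that the median difference was -0.05. Median-of-ratios rescaling moved the 3 h median to 0.00 and the median difference to -0.01.

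**Figure D1:**
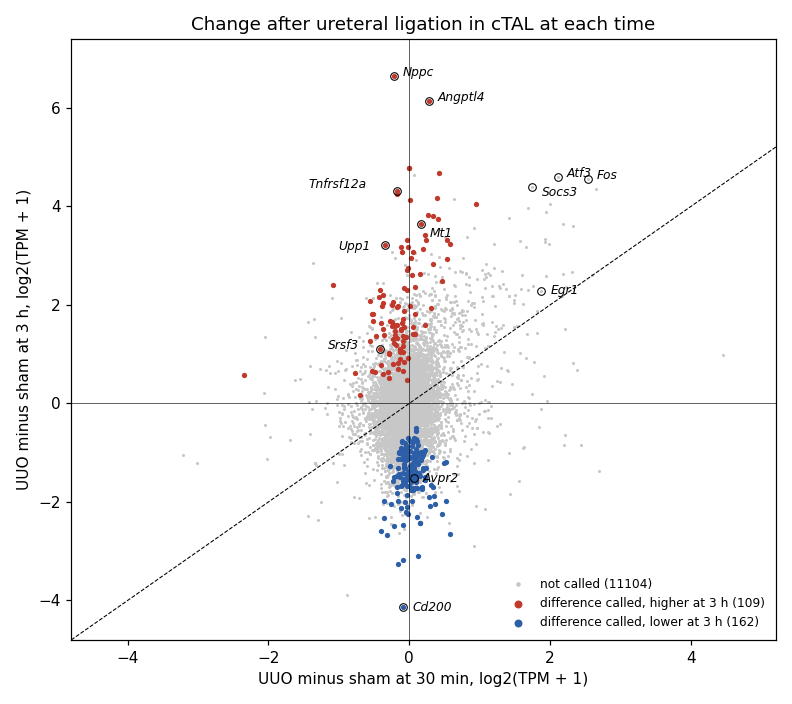
Each point is one of 11375 genes, placed by its log2(TPM + 1) change (UUO minus sham) at 30 min on the x axis and at 3 h on the y axis; the dashed diagonal marks equal change at both times. The 109 genes called higher (red) lie above and the 162 called lower (blue) below a narrow band around no change at 30 min, while Fos and Atf3 sit to the right with changes at both times.

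The count depended on single libraries. Without sham replicate 3 at 30 min it was 162 (76 higher, 86 lower) and without sham replicate 2 at 30 min 172 (80 higher, 92 lower). The lower genes also came to 97 without UUO replicate 3 at 30 min and to 99 without sham replicate 2 at 3 h. Removing the 13 mitochondrially encoded genes before rescaling changed the share of higher genes among those called from 40.2% to 29.9%. Sham replicates 1 and 2 at 3 h held the highest summed endothelial markers, 386 and 268 TPM. Leaving both out, an alternative added after seeing the data, left 47 higher and 37 lower genes. All 12 largest rises described next were still called in that fit. Of the 12 largest falls 10 were not, and of 22 other called genes named here 12 were not: Kcnj1, Cldn10, Cxcl1, Errfi1, Tubb6, Hspa8, Bnip3, Birc3, Tra2b, Tfap2b, Elf3 and Trib3.

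The largest rise was that of Nppc, which encodes C-type natriuretic peptide, a paracrine hormone that signals through cyclic GMP. At 30 min Nppc lay at 0.190, 0.600, 1.01 and 0.240 TPM in sham and at 0, 0.490, 0.490 and 0.170 TPM in UUO. At 3 h it was at 0, 0.630, 0 and 0 TPM in sham and at 186, 89.6, 235 and 39.9 TPM in UUO. The arms were mixed at 30 min, and at 3 h every UUO library stood far above every sham library. The difference of changes was 6.86 (SE 0.60, adjusted p = 2.79e-05, limma with Benjamini-Hochberg adjustment). Nppc was the only called gene of the 4 tested members of the endothelin and natriuretic peptide list, against 2.38% of all genes.

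Angptl4, a secreted inhibitor of lipoprotein lipase, followed with a difference of 5.87 (SE 1.05, adjusted p = 0.0096). Its 3 h levels were 0.790, 1.25, 0.0700 and 0.480 TPM in sham and 14.9, 229, 106 and 409 TPM in UUO, while all 8 libraries at 30 min lay at or below 3.35 TPM. Its UUO libraries differed widely among themselves but none overlapped with sham. Csrp3, a LIM-domain protein best known from striated muscle, had 1.51, 2.52, 1.29 and 2.29 TPM in sham at 3 h and 11.8, 63.8, 99.7 and 105 TPM in UUO. Its difference was 4.44 (SE 0.78, adjusted p = 0.00841), against a 30 min change of -0.18.

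Tnfrsf12a, the receptor of the cytokine TWEAK, was at 27.1, 23.6, 95.9 and 30.7 TPM in sham and 22.4, 39.2, 22.7 and 57.9 TPM in UUO at 30 min. At 3 h it was at 32.9, 75.6, 59.6 and 38.9 TPM in sham and 769, 1079, 1245 and 932 TPM in UUO, 19.8-fold higher on the fitted scale. The difference was 4.48 (95% interval 3.28 to 5.69, adjusted p = 0.00104). Sfn, the 14-3-3 sigma protein that holds cell cycle regulators, was at 13.2 ± 6.06 TPM in sham and 403 ± 241 TPM in UUO at 3 h (SD, n = 4). It rose by a difference of 4.26 (SE 0.70).

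Upp1, the phosphorylase that breaks uridine down to uracil, had the smallest adjusted p among the named genes. At 30 min it was at 20, 20.9, 23.7 and 14.4 TPM in sham and at 14.5, 15.0, 13.0 and 17.9 TPM in UUO. Its 3 h levels were 24.8, 24.9, 24.5 and 29.0 TPM in sham and 244, 196, 325 and 236 TPM in UUO. The arms overlapped at 30 min, with UUO mostly on the low side, and were far apart at 3 h. The difference was 3.56 (SE 0.25, adjusted p = 1.87e-06).

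**Figure D2:**
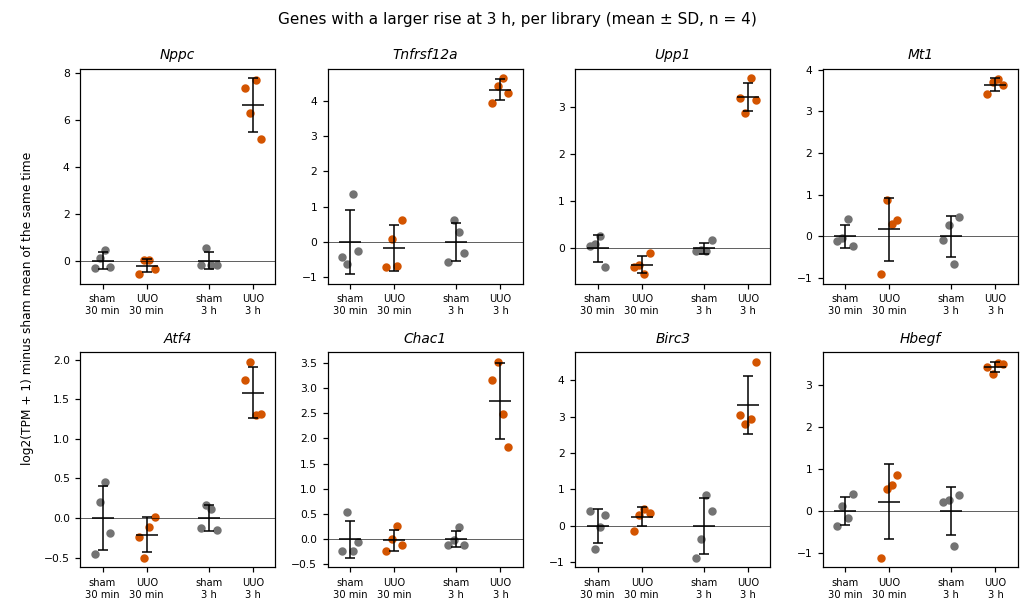
Points are single libraries of Nppc, Tnfrsf12a, Upp1, Mt1, Atf4, Chac1, Birc3 and Hbegf as log2(TPM + 1) minus the mean of the sham libraries of the same time, for sham and UUO at 30 min and 3 h, with bars for mean ± SD (n = 4). In each panel the arms overlap at 30 min and every 3 h UUO library lies above all 3 h sham libraries.

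Metallothioneins, small proteins that bind zinc and copper, made up 3 of the 12 largest rises. Mt2A was at 1415, 1559, 2080.2 and 1298 TPM in sham and at 866, 3187, 2028 and 2211 TPM in UUO at 30 min. At 3 h it was at 823, 996, 505 and 1152 TPM in sham and at 9299, 12176, 13900.0 and 12109 TPM in UUO. At 30 min 1 UUO library lay below and 2 above all sham libraries, whereas at 3 h all 4 lay far above. The difference was 3.56 for Mt2A (SE 0.45, adjusted p = 0.00104) and 3.47 for Mt1 (SE 0.43, adjusted p = 0.000974). Mt1m, at a much lower level of 31.9 ± 15.4 TPM in sham and 424 ± 134 TPM in UUO at 3 h, had a difference of 3.48. Because the family's sequences are alike, reads could have been split between its members, and their separate values are uncertain.

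Metallothionein genes are the textbook targets of the zinc-sensing factor MTF1, which binds short metal response elements. TGCNCNC, a pattern looser than the core of these elements, was searched in the 200 bases before the start of Mt1 and Mt2A, shown here. Both are RefSeq sequences of the build GRCr8 on the minus strand, Mt1 at chr19:10832976-10833175 and Mt2A at chr19:10838709-10838908. They are printed 5′ to 3′ with capitals marking each match to TGCNCNC on either strand, 7 in Mt1 and 4 in Mt2A.
Mt1: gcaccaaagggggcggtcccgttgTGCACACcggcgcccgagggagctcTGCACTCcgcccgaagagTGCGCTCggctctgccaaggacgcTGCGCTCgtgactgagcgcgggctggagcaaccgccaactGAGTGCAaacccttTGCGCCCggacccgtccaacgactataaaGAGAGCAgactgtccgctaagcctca
Mt2A: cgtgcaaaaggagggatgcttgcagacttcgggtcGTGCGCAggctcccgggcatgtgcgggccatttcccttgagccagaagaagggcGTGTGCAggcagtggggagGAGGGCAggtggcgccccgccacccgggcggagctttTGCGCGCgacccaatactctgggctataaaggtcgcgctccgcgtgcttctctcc
Over the 250 bases before the start, Mt1 held 7 matches and Mt2A 5. Of the 7733 promoters of tested genes that could be matched by symbol, 0.0388% held as many as Mt1 and 0.478% as many as Mt2A. A single match was common, in 52.9% of those promoters, in 53.2% of the 77 matched promoters of genes called higher and in 48.3% of the 118 of genes called lower. A match is a description of letters, need not be a metal response element and is not a bound site.

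Other motifs were searched in the same 250 bases on both strands. A loose NF-kB pattern was in 74% of the promoters of genes called higher, 60.9% of all tested and 48.3% of genes called lower. The AP-1 pattern TGACTCA was in 6.49%, 3.01% and 3.39%, and the cyclic AMP pattern TGACGTCA in 3.9%, 2.91% and 0%. The heat shock pattern GAANNTTC was in 2.6%, 4.78% and 6.78%, and the antioxidant pattern TGACNNNGC in 11.7%, 13% and 12.7%. The STAT pattern TTCCNGGAA was in none of the called genes' promoters and in 1.14% of all, and the TEAD pattern CATTCC was in 7.79%, 10.1% and 11.9%. These shares were not tested.

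The metallothioneins belonged to a list with targets of NRF2, the factor that answers oxidants. Of its 17 tested members 3 were called for the difference, all metallothioneins, but 12 were called higher at 3 h and none lower, beside a background of 4.52% higher. The list's median difference was 1.39, against -0.05 for all genes. Osgin1, an oxidative stress growth inhibitor, had a 3 h change of 2.92 (adjusted p = 0.00339) and a difference of 2.82 that did not pass (adjusted p = 0.0834). Both subunits of the glutathione-making ligase had 3 h changes that passed, 2.57 for Gclc and 2.42 for Gclm, with 30 min changes of 0.84 and 0.81 that did not. Hmox1, which degrades heme, was at 4.67, 4.63, 2.89 and 2.25 TPM in sham and 6.18, 24.3, 13.4 and 26.0 TPM in UUO at 3 h. Its arms did not overlap at 3 h, but the difference of 1.76 missed the threshold (adjusted p = 0.12).

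Genes of the integrated stress response, in which the factor Atf4 is made when translation initiation is slowed, had 3 called of 24 tested members, all higher, against 0.958% of all genes called higher. Atf4 was at 124, 197, 235 and 150.3 TPM in sham and at 144, 121, 158 and 173 TPM in UUO at 30 min. Its 3 h levels were 70.7, 86.2, 83.2 and 69.2 TPM in sham and 260.3, 304, 192 and 194 TPM in UUO. The arms were interleaved at 30 min and apart at 3 h, for a difference of 1.8 (SE 0.28, adjusted p = 0.00398). Its targets Chac1, which degrades glutathione, and Trib3, a pseudokinase, had differences of 2.77 and 1.97. Chac1 lay at or below 0.710 TPM in all 30 min libraries and all 3 h sham libraries, and at 8.65, 11.3, 5.0 and 2.83 TPM in UUO at 3 h. Ddit3 and Asns, other genes of this response, had 3 h changes of 0.12 and 0.05 and did not pass. The call of Trib3 was lost in 7 of 16 fits that left out 1 library.

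Of 17 heat shock genes 2 were called for the difference, both higher, against 0.958% of all genes called higher. At 3 h 5 were higher and 1 lower, against 4.52% and 12.3% of all genes. Hspa1b, an inducible Hsp70 chaperone with a near-identical copy, was at 1.36, 6.27, 0.930 and 1.48 TPM in sham and at 15.5, 34.0, 29.98 and 29.2 TPM in UUO at 3 h. Its difference was 3.30 (SE 0.69, adjusted p = 0.0186), and its counts could have been shared with that copy. Hspa8, the constitutive family member, had a difference of 0.50 whose call was lost in 13 of 16 fits that left out 1 library. Hsph1 and Dnajb1 had 3 h changes of -0.44 and 0.56 that did not pass.

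Other stress genes among the largest rises were Gadd45b, an activator of p38 and JNK signalling, and Rasd1, a small GTPase. Gadd45b was at 25.6, 21.3, 10.5 and 11.5 TPM in sham and at 117, 384, 261 and 224 TPM in UUO at 3 h, and its difference was 3.32 (SE 0.56, adjusted p = 0.00794). Rasd1 was at 9.92, 6.58, 2.42 and 1.52 TPM in sham and at 57.6, 44.9, 124 and 226 TPM in UUO at 3 h. Its difference of 3.78 lost its call in 7 of 16 fits that left out 1 library. Bnip3, a mitophagy receptor and hypoxia target, rose by a difference of 1.36 (SE 0.28). It was the only one called of 24 hypoxia and glycolysis genes, against 2.38% of all genes. Of the 13 p53 targets tested none was called for the difference, which is near the share of all genes. Mdm2, the ubiquitin ligase of p53, came closest (0.98, adjusted p = 0.0528).

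The growth factor Hbegf, a ligand of the EGF receptor, had almost equal UUO replicates at 3 h. It was at 4.99, 7.21, 5.84 and 9.08 TPM in sham and at 2.53, 10.02, 10.6 and 12.7 TPM in UUO at 30 min. By 3 h the levels were 5.42, 5.68, 2.10 and 6.18 TPM in sham and 58.1, 52.0, 62.0 and 61.9 TPM in UUO. The difference was 3.20 (SE 0.52, adjusted p = 0.00623). Hbegf was the only called member of the 7 EGF family genes tested, against 2.38% of all genes. Errfi1, a feedback inhibitor of the EGF receptor, had a difference of 2.79 (SE 0.60, adjusted p = 0.0219). The growth regulator Myc was at 0.520, 2.35, 0.730 and 0.50 TPM in sham and at 9.70, 17.1, 14.1 and 28.3 TPM in UUO at 3 h. Its difference was 3.19 (SE 0.54), and its 30 min change was -0.03. The call narrowly missed the threshold when the pseudocount, the value added to TPM before the logarithm, was 0.1 (adjusted p = 0.052).

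Of 20 NF-kB pathway genes 2 were called, Tnfrsf12a and Birc3, against 2.38% of all genes. At 3 h 9 were higher and 1 lower, against 4.52% and 12.3% of all genes. Birc3, an inhibitor of cell death that is a ubiquitin ligase of this pathway, was at 0, 0.440, 2.33 and 1.42 TPM in sham and at 14.2, 11.9, 13.1 and 40.7 TPM in UUO at 3 h. Its difference was 3.08 (SE 0.58, adjusted p = 0.0113). Nfkbia, the inhibitor that NF-kB itself induces, was at 113 ± 32.0 TPM in sham and 285 ± 57.0 TPM in UUO at 3 h. Its difference of 1.10 did not pass (adjusted p = 0.0988). The adhesion molecule Icam1 had a difference of 2.73 (adjusted p = 0.0563).

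Chemokines were represented by 1 call among 14 cytokine genes, against 2.38% of all genes called. Cxcl1, which attracts neutrophils, was at 1.69, 0, 0.730 and 1.44 TPM in sham and at 15.1, 9.24, 16.6 and 12.3 TPM in UUO at 3 h. Its difference was 2.4 (SE 0.53, adjusted p = 0.0245). The call was lost with a pseudocount of 0.1 (adjusted p = 0.282), with no filter (adjusted p = 0.0578) and in 3 of 16 fits without 1 library. Ccl20 had a larger difference of 4.56 but did not pass (adjusted p = 0.0823), with 82.4, 40.6, 57.5 and 658 TPM in UUO against 0, 14.02, 4.03 and 3.75 TPM in sham at 3 h. Ccl2, which attracts monocytes, had changes of 1.69 at 30 min and 2.29 at 3 h, and only the latter passed. In the interleukin-6 and STAT3 list Pim3, a survival kinase, was the only call among 16, against 2.38% of all genes. Its difference was 2.49, and the call was lost in 11 of 16 fits without 1 library. The feedback inhibitor Socs3 was at 2.71, 70.1, 78.2 and 108 TPM in UUO and at 1.37, 2.45, 0.410 and 0 TPM in sham at 3 h. At 30 min UUO replicate 4 already held 72.5 TPM while the other UUO libraries held at most 2.4 TPM, and the difference did not pass (adjusted p = 0.473).

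None of the 6 tested AP-1 factors was called for the difference, as were 2.38% of all genes, and all 6 had a positive difference (median 1.75). At 3 h 4 were called higher, against 4.52% of all genes, and their median change was 1.00 at 30 min and 3.06 at 3 h. Fos was at 52.5, 19.7, 54.6 and 87.4 TPM in sham and at 185, 242, 246 and 546 TPM in UUO at 30 min. At 3 h it was at 2.10, 26.1, 2.30 and 3.66 TPM in sham and at 182, 76.8, 81.7 and 333 TPM in UUO. The arms of Fos did not overlap at either time, as for 0.369% of all genes with UUO above sham at 30 min and 5.13% at 3 h. Its change was 2.53 at 30 min, which did not pass, and 4.55 at 3 h, which did, and the difference of 2.02 had a 95% interval of 0.06 to 3.98 (adjusted p = 0.289).

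Junb and Atf3, the other factors with large values, differed in how alike their libraries were. Junb was at 16.3, 33.7, 20.2 and 189 TPM in UUO and at 12.4, 10.9, 26.8 and 41.5 TPM in sham at 30 min. Atf3 was at 10.8, 38.5, 41.4 and 217 TPM in UUO and at 3.85, 2.49, 29.9 and 23.1 TPM in sham at 30 min. In both, UUO replicate 4 was the highest library and the arms overlapped. At 3 h neither overlapped, with 3 h changes of 3.56 for Junb and 4.61 for Atf3, and their differences of 2.64 and 2.5 did not pass.

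Of the 15 other immediate early genes, Myc alone was called for the difference, against 0.958% of all genes called higher. At 3 h 9 were higher, against 4.52% of all genes. Egr1, an early zinc finger factor, had changes of 1.87 at 30 min and 2.29 at 3 h, with a difference of 0.42 and a 95% interval of -1.17 to 2.00. Its level at 30 min was 12.4 ± 8.30 TPM in sham and 50.7 ± 32.6 TPM in UUO. At 3 h it was near 1 TPM in sham, at 1.68, 1.01, 0.480 and 0.840 TPM. The difference was 1.1 with a pseudocount of 0.1 and -0.36 with a pseudocount of 5, so it has no settled direction. The phosphatase Dusp1, which switches MAP kinases off, had changes of 1.42 and 2.18. At 30 min UUO replicate 4 was the highest UUO library for Fos, Jun, Egr1 and Dusp1 (546, 70.3, 93.5 and 35.1 TPM), as for Junb, Atf3 and Socs3. It was not the highest for Klf6 (116 TPM) or Myc (1.54 TPM), and it was the lowest for Ccl2 (1.44 TPM). How far this library carried the 30 min changes was not tested. The matricellular YAP target Ccn1 was at 0.970, 0.390, 2.28 and 1.71 TPM in sham and 1.74, 3.84, 7.22 and 20.9 TPM in UUO at 30 min. At 3 h it was at 0, 0.110, 0 and 0 TPM in sham and 1.39, 1.01, 1.07 and 0.430 TPM in UUO, low levels that did not overlap. Its difference of -0.73 did not pass and turned to 0.83 with a pseudocount of 0.1, so it has no settled direction. Zfp36, which speeds decay of cytokine mRNAs, had 3 h UUO levels of 169, 316, 180.0 and 326 TPM against 22.9, 42.9, 17.1 and 20.02 TPM in sham and a difference of 2.03 (adjusted p = 0.0834).

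**Figure D3:**
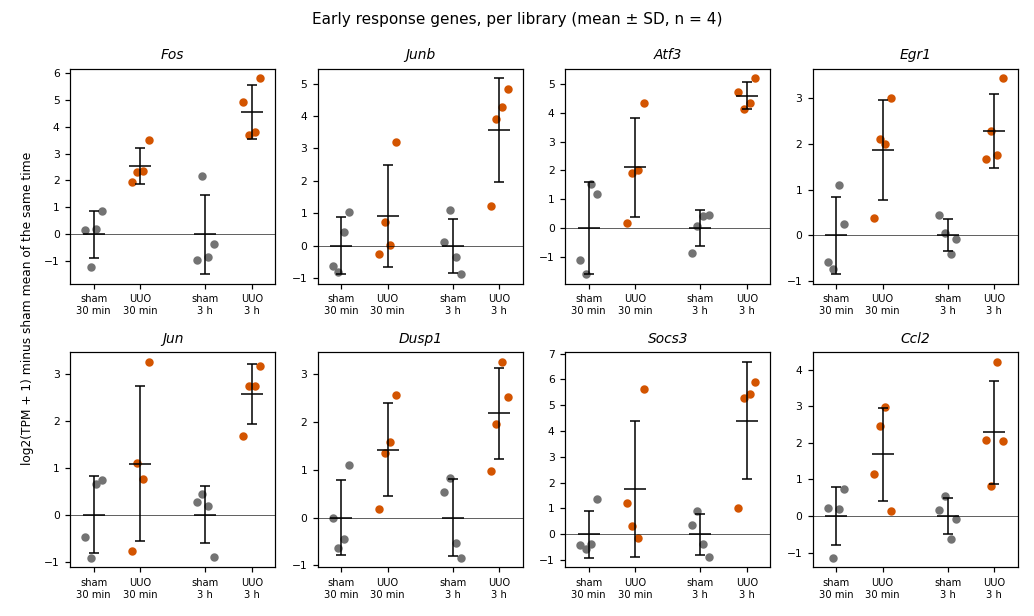
Points are single libraries of Fos, Junb, Atf3, Egr1, Jun, Dusp1, Socs3 and Ccl2 as log2(TPM + 1) minus the mean of the sham libraries of the same time, with bars for mean ± SD (n = 4). UUO libraries of Fos lie above sham at both times. In Junb, Atf3 and Socs3 a single UUO library at 30 min, replicate 4 in each, lies well above the other UUO libraries.

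A pair of splicing regulators had opposite signs at the 2 times, as had 78 of the 109 genes called higher. A negative 30 min change by itself enlarges this difference. Srsf3, a serine-arginine-rich factor, was at 167, 177, 214 and 181 TPM in sham and at 121, 126, 156 and 151 TPM in UUO at 30 min. By 3 h the levels were 128, 129.6, 125 and 132 TPM in sham and 279.9, 321, 268 and 243 TPM in UUO. All UUO libraries lay below sham at 30 min and above sham at 3 h, and the difference was 1.51 (SE 0.16, adjusted p = 0.000212). Tra2b, a related splicing activator, was at 58.6 ± 4.12 TPM in sham and 41.9 ± 6.17 TPM in UUO at 30 min, and at 3 h the means were 38.8 ± 7.22 and 59.9 ± 2.22 TPM. It also had no overlap at either time, and its difference was 1.11 (SE 0.20, adjusted p = 0.00845). Among the 109 higher genes, 7 had no overlap at 30 min. The share of all genes without overlap was 1.76% at 30 min and 18.2% at 3 h. The 30 min changes of Srsf3 and Tra2b, -0.41 and -0.48, did not pass by themselves. They were the only 2 called of 14 in this list, against 2.38% of all genes, and Srsf1, Srsf7 and Srsf10 overlapped between arms at both times.

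In the cytoskeleton list 2 of 19 genes were called, both higher, against 0.958% of all genes called higher. Tubb6, a beta-tubulin, was at 2.74, 2.73, 6.45 and 6.26 TPM in sham and at 29.4, 16.6, 17.1 and 24.0 TPM in UUO at 3 h, with a difference of 2.63 (SE 0.52, adjusted p = 0.0141). Myl12a, a regulatory myosin light chain, rose less but with tight replicates, at 443 ± 50.8 TPM in sham and 839 ± 95.2 TPM in UUO at 3 h. Its difference was 0.94 (SE 0.17, adjusted p = 0.0096). Actb had a difference of -0.14 that did not pass.

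Of 20 tested genes of salt transport 1 was called for the difference, the potassium channel Kcnj1, a share near the 2.38% of all genes. At 3 h 2 were higher and 3 lower, against 4.52% and 12.3% of all genes. Kcnj1 was at 1617, 1111, 1080.2 and 1244 TPM in sham and at 1059, 1012, 1160.1 and 1274 TPM in UUO at 30 min. At 3 h it was at 699, 729, 887 and 739 TPM in sham and at 344, 424, 338 and 411 TPM in UUO, with no overlap. The difference was -0.86 (SE 0.18, adjusted p = 0.0219), and it lost its call in 2 of 16 fits without 1 library. The cotransporter Slc12a1 was at 370.1 ± 79.6 TPM in sham and 405 ± 192 TPM in UUO at 3 h. Its difference was 0.21 with a 95% interval of -0.63 to 1.04. At 3 h the sodium pump beta subunit Atp1b1 and the basolateral potassium channel subunit Kcnj16 were higher (1.15 and 0.83) and the kinase Wnk1 and Maged2 were lower (-1.10 and -0.56), without a call for the difference.

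Among 13 genes of calcium and magnesium handling, 2 tight junction proteins were called in opposite directions, against 2.38% of all genes called. Cldn3 was at 49.9, 69.2, 34.5 and 59.9 TPM in sham and at 133, 162, 178 and 115 TPM in UUO at 3 h, and rose by a difference of 1.67 (SE 0.34, adjusted p = 0.0176). Cldn10, which forms the sodium-permeable pore, was at 1781 ± 142 TPM in sham and 1271 ± 144 TPM in UUO at 3 h. It fell by a difference of -0.59 (adjusted p = 0.0469), a call lost in 14 of 16 fits without 1 library. Cldn16, the claudin of the magnesium path, had -0.02 with an interval of -0.56 to 0.52. The calcium-sensing receptor Casr was lower at 3 h (-1.18, adjusted p = 0.0119), but its difference of -0.88 did not pass.

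The vasopressin V2 receptor Avpr2 had the clearest fall among genes of hormone response. It was at 47.2, 41.8, 39.5 and 49.8 TPM in sham and at 35.3, 47.8, 49.1 and 56.0 TPM in UUO at 30 min. By 3 h the levels were 63.5, 66.5, 67.3 and 68.5 TPM in sham and 20.2, 26.5, 25.8 and 19.3 TPM in UUO. The arms overlapped at 30 min and at 3 h all UUO libraries were lower, 2.84-fold on the fitted scale. The difference was -1.57 (SE 0.22, adjusted p = 0.00165). Avpr2 is also 1 of 7 tested principal cell markers, of which 1 had a positive difference (median -0.82). The median change of these markers was above 0 at both times, 0.69 at 30 min and 0.37 at 3 h. Only 1 of them, Avpr2, was called lower at 3 h. Their summed level at 3 h was 91.2 to 618 TPM in sham and 52.4 to 160.0 TPM in UUO, and their part in the result was not tested.

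The secreted products of the segment were not called. Umod was at 41305 ± 11586 TPM in sham and 31568 ± 2336 TPM in UUO at 3 h, with a difference of -0.28 and an interval of -0.84 to 0.29. Its 3 h arms did not overlap, by a narrow margin: the highest UUO library held 33411 TPM and the lowest sham library 33550 TPM. The 3 h change of -0.35 did not pass (limma adjusted p = 0.221). Egf, the growth factor precursor made in this segment, had a difference of 0.08 and an interval of -0.61 to 0.78. Both turned sign under another setting. Of 14 transcription factors 2 were called, against 2.38% of all genes. These were the epithelial ETS factor Elf3, higher (1.37), and the tubule factor Tfap2b, lower (-1.48). Tfap2b was at 32.5, 38.7, 39.7 and 49.7 TPM in sham and at 12.4, 17.8, 12.4 and 9.66 TPM in UUO at 3 h. Its call was lost in 11 of 16 fits without 1 library, and that of Elf3 in 3.

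**Figure D4:**
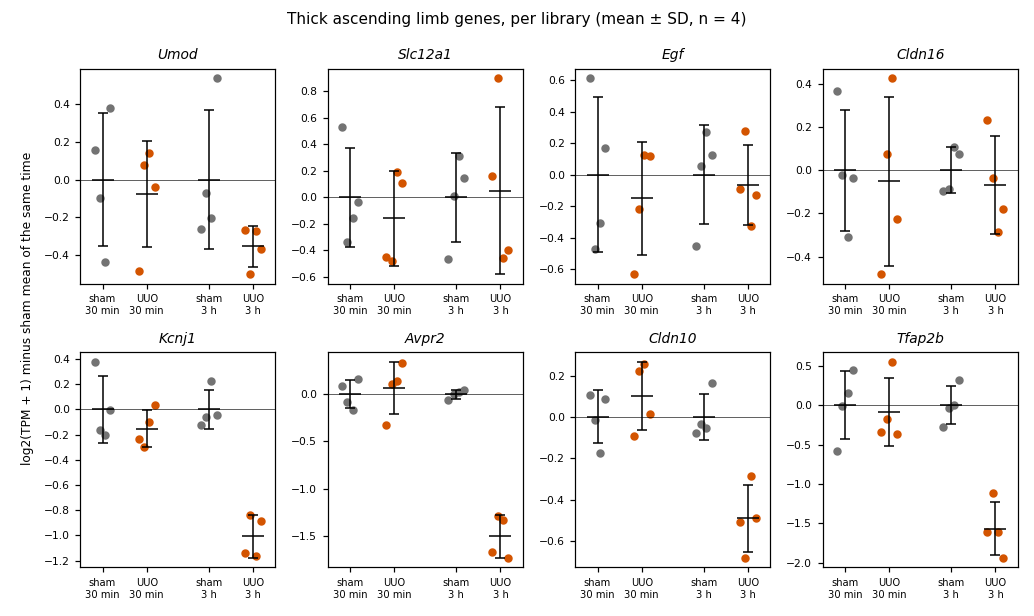
Points are single libraries of Umod, Slc12a1, Egf, Cldn16, Kcnj1, Avpr2, Cldn10 and Tfap2b as log2(TPM + 1) minus the mean of the sham libraries of the same time, with bars for mean ± SD (n = 4). Kcnj1, Avpr2, Cldn10 and Tfap2b lie below sham at 3 h without overlap, as does Umod by a narrow margin. Slc12a1, Egf and Cldn16 overlap at both times.

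The largest falls were mostly of genes below 100 TPM. Cd200, a membrane protein that restrains myeloid cells, was at 13.8, 38.2, 18.1 and 41.3 TPM in sham and at 47.9, 9.17, 36.8 and 18.4 TPM in UUO at 30 min. Its 3 h levels were 86.6, 30.5, 29.3 and 14.7 TPM in sham and 2.20, 1.67, 0.65 and 0 TPM in UUO. The difference was -4.04 (SE 0.80, adjusted p = 0.0155). The galectin Lgals9 was at 22.9, 43.7, 20.7 and 13.4 TPM in sham and at 0, 2.23, 2.99 and 2.13 TPM in UUO at 3 h (difference -3.10). Its call was lost with a pseudocount of 0.1 (limma adjusted p = 0.0746). Pycard, the adaptor of inflammasomes, was at 26.0, 29.6, 27.1 and 21.9 TPM in sham and at 4.87, 2.59, 2.54 and 6.65 TPM in UUO at 3 h (difference -2.38). In all 3 the 30 min arms overlapped and the 3 h arms did not.

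Lrrc66 and Fgf9 kept their calls when sham replicates 1 and 2 at 3 h were left out, and they were the only 2 of the 12 largest falls to do so. Lrrc66, a leucine-rich repeat protein, was at 45.8, 27.8, 46.4 and 48.9 TPM in sham and at 2.59, 3.45, 4.51 and 4.32 TPM in UUO at 3 h. Its difference was -3.09 (SE 0.40, adjusted p = 0.00104). Fgf9, a fibroblast growth factor, was at 9.41, 20.7, 14.02 and 21.1 TPM in sham and at 2.33, 4.83, 1.33 and 4.79 TPM in UUO at 3 h. Its difference was -2.41 (SE 0.45, adjusted p = 0.0113).

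The other 7 of the 12 largest falls ranged from -3.23 to -2.39. Trim63, a ubiquitin ligase best known from muscle, was at 20.1 ± 4.31 TPM in sham and 3.60 ± 1.66 TPM in UUO at 3 h. Csgalnact1, an enzyme of chondroitin sulfate synthesis, was at 8.19 ± 3.15 and 0.708 ± 0.574 TPM. Tmem255b, Fam167b and Zc4h2 fell by differences of -3.23, -3.21 and -2.42. Wscd1 (-2.59) and the interferon-induced Ifi44 (-2.39) lost their calls in 6 and 8 of 16 fits without 1 library.

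Markers of other cell types moved at 3 h beside these changes. All 11 macrophage markers had a negative difference (median -1.48, against -0.05 for all genes). At 3 h 5 were called lower, against 12.3% of all genes. Their summed level at 3 h was 2501 to 3830 TPM in sham and 1332 to 2272 TPM in UUO, and at 30 min 1348 to 3338 TPM and 1420 to 3590 TPM. Among defining macrophage markers at 3 h, Adgre1 was at 0 in UUO replicates 1 and 2 and Ptprc at 0 in UUO replicates 2 and 3. Fcer1g of the same list stayed present, at 23.7, 9.03, 40.0 and 67.1 TPM in UUO and 122, 141, 115 and 159 TPM in sham at 3 h. All 7 endothelial markers had a negative difference as well (median -1.43), 5 of them called lower at 3 h, against 12.3% of all genes. Their sums were 68.5 to 386 TPM in sham and 58.1 to 94.3 TPM in UUO at 3 h. Cdh5 was at 4.28, 4.57, 2.79 and 3.73 TPM in sham and at 0, 0.590, 0.0300 and 1.95 TPM in UUO at 3 h.

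Proximal tubule markers moved the other way. All 8 had a positive difference (median 1.44), and their sums at 3 h were 515 to 1180 TPM in sham and 1454 to 3274 TPM in UUO. Hemoglobin and other red cell genes summed to 293 to 2388 TPM in sham and 1507 to 8185 TPM in UUO. The sum of thick limb markers at 3 h was 37163 to 63069 TPM in sham and 32427 to 36922 TPM in UUO. For the sums of macrophage, proximal tubule and thick limb markers the two-sided exact permutation p at 3 h was 0.0286, the smallest that 4 against 4 can give, and 0.143 after adjustment over 15 measures. None of the marker genes of other cell types was called for the difference except Avpr2. The part of these markers in the rises and falls above was not tested.

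Several lists of housekeeping and metabolic genes had no called member. With 2.38% of all genes called, a count of 0 in lists of this size is near the share of all genes and is no result about these groups. These were 30 nuclear oxidative phosphorylation genes (median difference -0.07), 13 mitochondrially encoded genes (-0.18), 26 ribosomal proteins (0.07), 23 ribosome biogenesis genes (0.33) and 18 fatty acid and ketone genes (0.22). Nor had the 13 YAP targets (0.47), the 13 TGF-beta and BMP genes (0.36) or the 11 prostaglandin genes (0.41). None of the 21 epithelial injury markers was called for the difference, and 5 were called higher at 3 h, against 4.52% of all genes. Among them Lcn2, a secreted iron carrier, was at 1.56, 46.7, 34.3 and 39.5 TPM in UUO and 2.78, 6.23, 1.37 and 6.14 TPM in sham at 3 h, so UUO replicate 1 lay among the sham libraries. Spp1, or osteopontin, likewise had 261 TPM in UUO replicate 1 and 756 to 1282 TPM in the other 3, and Krt19 had a difference of -0.56. The injury gene Havcr1 and the stress cytokine Gdf15 were below the level filter.

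Of the 28 pathway lists 17 held a called member. Together they held 443 distinct tested genes, of which 28 were called (6.32%, against 2.38% of all genes), 24 higher and 4 lower. The lists were chosen with earlier results of these libraries known, so the share describes them and is no test.

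**Figure D5:**
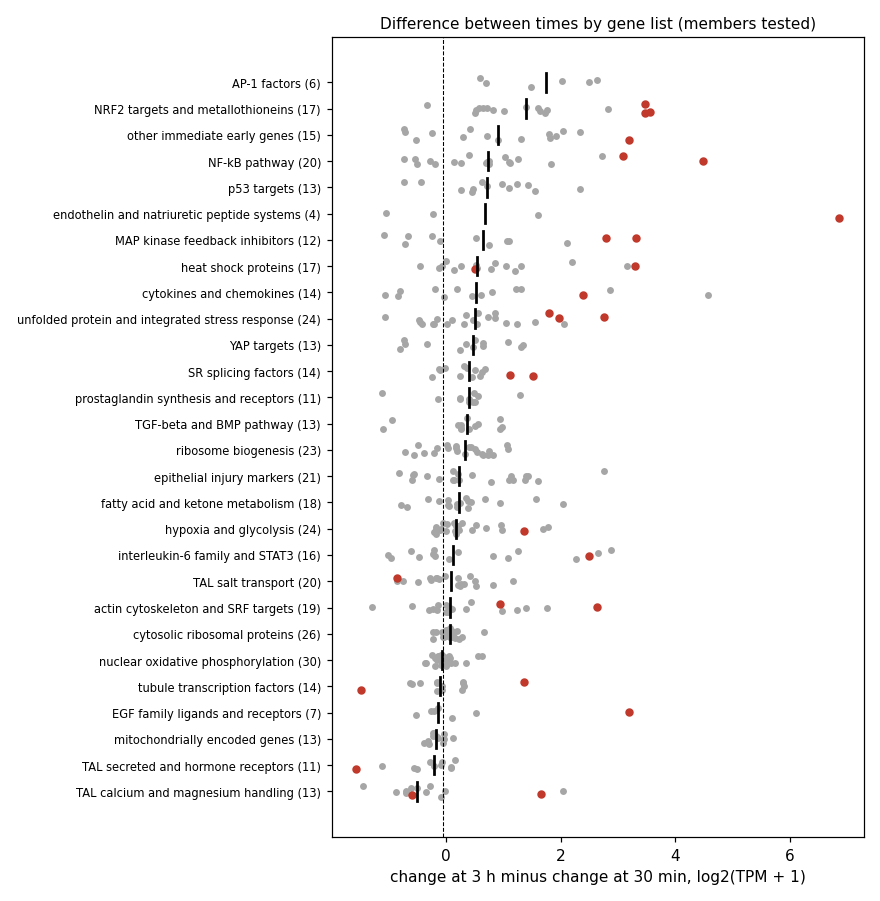
Each dot is a tested gene of one of 28 pathway lists, placed by its log2 difference (change at 3 h minus change at 30 min); red dots were called, black ticks are list medians and the dashed line is the median of all genes, -0.05. The NRF2 and metallothionein list (median 1.39) and the AP-1 list (median 1.75) lie furthest to the right, and the oxidative phosphorylation and ribosomal lists cluster at the line.

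The cortical collecting duct (CCD), sampled in the same arms and times, allowed a test of where the thick limb differed. The same contrast in CCD was called for 194 of the 11375 genes (1.71%), 162 higher and 32 lower. Those genes were kept by their level in cTAL and not in CCD. The CCD counts are therefore not a like comparison with those of cTAL. The difference between segments, cTAL minus CCD within a number, was called for 2 genes (0.0176%), both lower in cTAL, with 1420 at an unadjusted p under 0.05. RT1-S3, a class I MHC gene of a large family in which reads can be split, had a difference of -2.57 in cTAL and 1.03 in CCD (adjusted p = 0.0212 for the segments). Saysd1 was at 61.1, 44.7, 39.8 and 29.8 TPM in cTAL sham and at 15.0, 10.2, 10.1 and 13.7 TPM in cTAL UUO at 3 h, a difference of -1.92 in cTAL and 0.07 in CCD (adjusted p = 0.0427 for the segments). This subtraction takes same-numbered cTAL and CCD libraries as 1 animal, which the labels do not state. With 8 separate groups in place of the subtraction 4 genes were called, 1 of them higher in cTAL, and with median-of-ratios scaling 23 were (13 higher, 10 lower), so count and direction depended on the setting. With library 2 of each CCD number alone neither was called, and with library 1 alone 26 genes were.

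None of the 12 largest rises passed the test between segments. Values of some of them and of other named genes lie side by side as follows. Angptl4 had a difference of 5.87 in cTAL and 4.46 in CCD, Csrp3 4.44 and 1.27, and Rasd1 3.78 and 0.40. Tnfrsf12a had a difference of 4.48 in cTAL and 4.72 in CCD, Sfn 4.26 and 4.11, Myc 3.19 and 2.97, Hbegf 3.20 and 2.96. Nppc had 6.86 in cTAL and 1.14 in CCD (adjusted p = 0.0613 for the segments), Upp1 3.56 and 0.47 (adjusted p = 0.0706) and Srsf3 1.51 and 0.28 (adjusted p = 0.0725). Avpr2 had -1.57 and -1.29 (adjusted p = 0.863). The median gene's cTAL minus CCD value was -0.26, and median-of-ratios rescaling brought it to -0.04.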

How the data were processed

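RNA of microdissected cTAL from 4 groups of 4 replicates was compared. A SMARTer V4 kit gave the cDNA, which was amplified for 15 cycles and made into libraries with Nextera XT, per the labels' protocols. The protocols do not state that strand is kept, so a gene and its antisense partner cannot be told apart. The aligner STAR 2.7.3, the quantifier RSEM 1.3.3 and the build Rnor_6.0 are named in the submitters' processing notes. The values the authors deposited are TPM per gene, in a separate table for each time, and they keep no depth. Tables were joined by Ensembl identifier; 5174 identifiers were named differently and are printed under one name.

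From these, log2(TPM + 1) was computed and 1 limma fit (version 3.58.1 in R 4.3.3, mean-variance trend, tables read by data.table in its version 1.17.8) over all 16 libraries gave the change at each time and their difference. Benjamini-Hochberg adjustment ran over 11375 genes, with calls at an adjusted p under 0.05. Segments were compared on cTAL minus CCD per number, CCD libraries averaged. Marker sums were compared with a two-sided exact permutation test. In simulated data of this design and these 11375 genes, 34%, 84%, 90% and 94% of log2 differences of 1, 2, 3 and 4 were recovered, with 1 false call among 152. The effects were placed only in genes with a mean log2(TPM + 1) over 2, in the 3 h UUO libraries. Noise was drawn separately for each gene, so these shares do not cover lower genes or shifts shared by the genes of a library. Named genes were the 12 largest called differences each way with at least 5 TPM in a group and a unique symbol that is no locus name, up to 3 called members per list (or the one with the smallest p), a fixed set, and up to 5 called genes each way between segments. Members and lists were chosen with earlier results of these data known. Alternatives covered the pseudocount, filter, scaling, trend, weights, a block for the number and leaving out each library. Python 3.11.15 with pandas 2.3.3 and matplotlib 3.10.9 drew the figures. Whole-kidney samples were not analysed here.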

Additional observations from a re-analysis of the deposited data

Results flagged for a closer look

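The change over time itself is a difference between times: 271 genes were called for it in cTAL by limma with Benjamini-Hochberg adjustment. Between segments, cTAL minus CCD, 2 genes were called, RT1-S3 and Saysd1.

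A single replicate stood far from the other 3 of its group, by Dixon's criterion at the 95% level, in 16 of 232 groups examined, where chance gives about 1 in 20. Among the late risers, Upp1 was highest in sham replicate 4 at 3 h with 29.0 TPM against 24.5 to 24.9 TPM, and Birc3 was highest in UUO replicate 4 at 3 h with 40.7 TPM against 11.9 to 14.2 TPM. Hbegf was lowest in UUO replicate 1 at 30 min with 2.53 TPM against 10.02 to 12.7 TPM, and in sham replicate 3 at 3 h with 2.10 TPM against 5.42 to 6.18 TPM. The splicing factor Tra2b was highest in sham replicate 4 at 3 h with 49.6 TPM against 34.6 to 35.6 TPM. The chaperone Hspa8 was highest in UUO replicate 4 at 30 min with 324 TPM against 278 to 279.8 TPM. Among the fallers, Lrrc66 was lowest in sham replicate 2 at 3 h with 27.8 TPM against 45.8 to 48.9 TPM. Csgalnact1 was lowest in UUO replicate 2 at 30 min with 1.17 TPM against 4.44 to 4.77 TPM, and Ifi44 was lowest in UUO replicate 4 at 30 min with 3.30 TPM against 5.65 to 6.18 TPM.

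Summed marker levels stood apart in further libraries. Macula densa markers summed to 125.8 TPM in UUO replicate 3 at 30 min against 2.23 to 7.36 TPM, and to 21.4 TPM in UUO replicate 1 at 3 h against 2.75 to 5.85 TPM. Principal cell markers summed to 618 TPM in sham replicate 1 at 3 h against 91.2 to 123.5 TPM. UUO replicate 1 at 30 min held 3299 TPM of proximal tubule markers against 713 to 936 TPM, and 3625 TPM of red cell genes against 787 to 933 TPM. Endothelial markers summed to 154 TPM in sham replicate 4 at 30 min against 69.2 to 72.2 TPM, and to 94.3 TPM in UUO replicate 3 at 3 h against 58.1 to 62.8 TPM.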

How the results depend on the processing

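The numbers of called genes for the change over time stayed within 1.5 times of 271 with other pseudocounts, filters, scalings, trend and weights, except that removing mitochondrially encoded genes gave 265 lower genes. Leaving out each library gave 162 to 344 called genes, 76 to 150 higher and 86 to 194 lower; 3 h calls were 1323 to 1959 and 30 min calls 0 to 2. With sham replicates 1 and 2 at 3 h left out together, an alternative chosen after seeing the data, 84 were called, 47 higher and 37 lower (78 of them among the 271), 941 at 3 h and 0 at 30 min; leaving fewer samples, it lost 10 of the 12 largest falls, 12 of 22 other called genes named in the text and none of the 12 largest rises. At 30 min the single call became 0 with a pseudocount of 0.1, the filter at both times or no trend, and 2 with no filter; the cause was not tested.

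Same-numbered sham and UUO libraries had correlations of deviations between -0.203 and 0.187, so the numbers were not taken as pairs, and 1 of the 8 sham libraries correlated best with its own number. With the replicate number as a block, 95 genes were called (58 higher, 37 lower), 90 of them among the 271, with 0 at 30 min, and 0 between segments, also 0 lower. The block lost 1 of the 12 largest rises, Rasd1. It lost 6 of the 12 largest falls: Fam167b, Lgals9, Trim63, Wscd1, Ifi44 and Pycard. Of 22 other called genes named in the text 10 were lost: Kcnj1, Cldn10, Cxcl1, Tubb6, Hspa8, Tra2b, Cldn3, Tfap2b, Elf3 and Trib3.

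Between segments, calls were 4 (1 higher) with 8 separate groups, 23 (13 higher, 10 lower) with median-of-ratios scaling, 26 (10 higher, 16 lower) with CCD library 1 alone, and 0 (0 lower) with library 2 alone. Leaving out each replicate gave 0 to 21, 0 to 3 higher and 0 to 18 lower.

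No named gene called for the difference turned direction under these settings. Of those not called, the difference turned for Ccn1 (0.83, pseudocount 0.1), Egr1 (-0.36, pseudocount 5), Cldn16 (0.041, median-of-ratios), Umod (0.10, quantile), Egf (-0.066) and Cd2 (0.34) with 1 weight per library, and Slc12a1 (-0.020), Egf (-0.12) and Aqp2 (0.82) with both sham libraries left out. Over fits without single libraries, it ranged across 0 for Egf (-0.12 to 0.24), Cldn16 (-0.16 to 0.14), Krt19 (-0.90 to 0.25), Egr1 (-0.081 to 0.80), Aqp2 (-1.53 to 1.16), Cd2 (-0.77 to 0.0079), Slc12a1 (-0.074 to 0.38) and Ccl2 (-0.033 to 1.10). TPM keep no depth, so how far depth limits low genes is unknown.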
